A study of Mus musculus with 19 samples.

Results

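Rag1, Rag2 and Dntt are 3 of the 28692 genes counted in this series, and they were taken by gene symbol. Each symbol matched 1 row of the RNA tables. Thymocytes, the T cell precursors of the thymus, were profiled by CITE-seq, which counts the RNA molecules of single cells together with antibody tags bound to their surface proteins. Cells of 17 mice aged 4 to 8 weeks were run on 19 lanes in 3 experiments. After filtering, 69243 of 85389 cell barcodes remained.

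Wild-type (WT) thymus came from 5 mice, and each of the other 6 genotypes from 2 mice. B2m-/- mice lack MHC class I (MHCI-/-) and H2-Ab1-/- mice lack MHC class II (MHCII-/-), so their polyclonal thymocytes can be selected on the remaining class. In AND and OT-II mice nearly all thymocytes bear 1 transgenic T cell receptor (TCR) restricted to MHC class II, and in F5 and OT-I mice 1 restricted to class I. AND and F5 were bred on a Rag1-/- background, whereas OT-I and OT-II mice were Rag-sufficient. The MHC-deficient mice and the WT mice of experiments 1 and 2 (WT r1 to r3) were sorted for CD5+TCRb+ cells, which removes most of the youngest thymocytes. AND, F5, OT-I, OT-II and the WT mice of experiment 3 (WT r4 and r5) were not sorted. OT-I, OT-II and unsorted WT were all in experiment 3, so experiment and sorting cannot be told apart between the WT mice, and OT-I and OT-II were compared with unsorted WT mice and the other genotypes with sorted WT mice. The MHC-deficient mice were all in experiment 2, whereas WT r1 was in experiment 1. AND and F5 mice were not sorted and the WT mice of the same experiments were, so genotype and sorting cannot be told apart in those comparisons.

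The products of the 3 genes act on DNA. The Rag1 and Rag2 proteins together form the recombinase that cuts antigen receptor genes at the recombination signals beside V, D and J segments. Dntt encodes terminal deoxynucleotidyl transferase, which adds untemplated nucleotides at the junctions before the cut ends are joined. In the thymus the recombinase is known to act first in CD4-CD8- double-negative (DN) cells, for the TCR beta, gamma and delta genes, and again in quiescent CD4+CD8+ double-positive (DP) cells, for TCR alpha. Signaling by a selected TCR is known to end that second phase before cells become CD4 or CD8 single positive (SP).

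Rag1 and Rag2 are close neighbors on mouse chromosome 2 (GRCm38, GENCODE vM21). Rag1 (ENSMUSG00000061311) lies at chr2:101638282-101649501 on the minus strand and Rag2 (ENSMUSG00000032864) at chr2:101624718-101632529 on the plus strand, so the genes converge with 5752 bases between them. In transcript Rag1-201 the coding sequence of 3120 bases sits in 1 of 2 exons, and in Rag2-201 that of 1581 bases sits in 1 of 3. A gene of unnamed function, B230118H07Rik (chr2:101560781-101649532, minus strand), spans both. Its transcripts 208, 209 and 212 share the 80 bases of the first Rag1 exon, and transcript 208 has an exon of 208 bases opposite the last Rag2 exon. Reads in those stretches could be split among the genes, so their counts are uncertain to that extent. Dntt (ENSMUSG00000025014) lies apart, at chr19:41029275-41059525 on the plus strand, with 12 exons, 1590 coding bases and the gene Opalin 2184 bases away.

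The promoters are shown because all 3 genes fell from quiescent to signaled DP-like cells. Each run covers 250 bases before to 50 after the RefSeq start on GRCm38.p6. Capitals mark E boxes (CANNTG, the letters read by the E proteins) and CCAAT on either strand.
Rag1 (chr2:101649483-101649782, minus strand): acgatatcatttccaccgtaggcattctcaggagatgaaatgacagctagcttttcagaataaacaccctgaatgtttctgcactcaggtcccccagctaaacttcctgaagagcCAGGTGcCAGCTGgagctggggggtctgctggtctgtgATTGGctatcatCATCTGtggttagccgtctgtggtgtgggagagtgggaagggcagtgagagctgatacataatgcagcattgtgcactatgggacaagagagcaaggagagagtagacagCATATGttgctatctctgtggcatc
Rag2 (chr2:101624462-101624761, plus strand): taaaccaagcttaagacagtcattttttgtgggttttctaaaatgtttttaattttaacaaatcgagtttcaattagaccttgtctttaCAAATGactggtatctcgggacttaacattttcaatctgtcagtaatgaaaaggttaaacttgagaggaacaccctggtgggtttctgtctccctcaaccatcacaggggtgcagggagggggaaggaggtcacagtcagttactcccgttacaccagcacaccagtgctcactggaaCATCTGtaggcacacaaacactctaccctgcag
Dntt (chr19:41029025-41029324, plus strand): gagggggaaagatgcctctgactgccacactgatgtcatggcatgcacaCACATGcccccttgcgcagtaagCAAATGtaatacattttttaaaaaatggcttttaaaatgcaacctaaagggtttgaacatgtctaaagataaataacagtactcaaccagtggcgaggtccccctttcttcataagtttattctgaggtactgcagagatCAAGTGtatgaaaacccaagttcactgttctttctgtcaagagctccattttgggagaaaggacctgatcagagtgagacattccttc
The Rag1 window held 4 E boxes, 1 CCAAT on the opposite strand, TGTGGT (the letters read by Runx factors) in 2 places and GGAAGT (an Ets-type core) in 1. The Rag2 window held 2 E boxes and the Dntt window 3, and neither held another searched motif. None of the windows held TATAAA (the TATA box), the GC box GGGCGG or the Fox-type motif GTAAACA. Of 32851 promoter windows of the same length, 72.3% held CANNTG, 37.4% CCAAT, 16.8% TGTGGT, 23.8% GGAAGT, 13.6% TATAAA, 35.7% GGGCGG and 3.65% GTAAACA, so an E box was common to most windows. GC content was 50% in the Rag1 window, 43.0% in that of Rag2 and 42.3% in that of Dntt.

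Levels below are UMI counts of a gene summed over the cells of a mouse and class and scaled to all RNA UMIs of those cells (CPM). A UMI marks 1 captured RNA molecule. Cells were grouped in a pair of ways. RNA classes came from clustering, from which Rag1, Rag2 and Dntt were left out, and were named from marker lists. Surface gates were set on antibody counts, with the myeloid-like and erythrocyte-like clusters left out. The 10 markers listed for quiescent DP-like cells summed to 3995 to 5455 CPM in that class in WT mice. They summed to 2099 to 2634 CPM in DN-like and 295 to 958 in signaled DP-like cells. These markers also gave the class its name, so the sums do not check it. Of the 14101 quiescent DP-like cells 94.9% lay in the DP surface gates. The class named DN-like by Il2ra, Ptcra and Notch3 had 51.4% of its cells in DP gates, so that name is only partly borne out by CD4 and CD8 protein. A cluster of 9950 cells led by Cdk19os, Amd1 and Trac had 89.1% of its cells in DP gates and too few markers for a name. It is called cluster 1. Lanes held 9893333 to 43303999 RNA UMIs, and 477 kept cells carried 1 of 238 barcodes found in more than 1 lane.

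Rag1 is the gene deleted in AND and F5 mice, and its level was lower there. In quiescent DP-like cells Rag1 stood at 1386, 1222 and 1255 CPM in sorted WT mice and at 116 and 202 in AND and 85.2 and 236 in F5 mice. All 4 Rag1-deficient mice lay below all 13 others, whose lowest value was 973 CPM in an MHCI-/- mouse. The log2 difference from sorted WT was -2.83 in AND (SE 0.44, adjusted p = 0.00327) and -2.89 in F5 (SE 0.42, adjusted p = 0.000308, edgeR quasi-likelihood test over 8342 genes). The AND call rests on both AND mice: the adjusted p was 0.0798 without the first and 0.0699 without the second. Rag1 transcripts were reduced and not absent: quiescent and signaled DP-like cells together held 14 to 344 Rag1 UMIs per AND or F5 mouse. Tags at the 3' end need not lie in the deleted part, so these counts do not check the deletion itself.

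Rag2, the intact partner gene, was lower as well. Its level in quiescent DP-like cells was 245.5, 170 and 150 CPM in sorted WT mice, 58.0 and 84.8 in AND mice and 48.6 and 57.5 in F5 mice. The values of AND and F5 again lay below all others, whose lowest was 119 CPM in an MHCI-/- mouse. The difference passed the test in F5 (log2 -1.74, SE 0.27, adjusted p = 0.000824) and not in AND (-1.20, SE 0.31, adjusted p = 0.123). Summed over 7 listed B cell markers, these cells held 908 and 861 CPM in F5, 655 and 545 in AND and 408 to 551 in sorted WT mice. Of the 7 markers, 3 and 5 were at 0 in F5, 4 and 5 in AND and 3, 5 and 4 in sorted WT mice. The sums thus rest on few of the markers and are not read as B cells. The part of other cells in the Rag2 difference was not tested. For WT, AND and F5 mice the replicate numbers 1 and 2 coincide with experiments 1 and 2. With that number as a block, over 2 mice a group, Rag2 was called in AND (-1.16, adjusted p = 0.00137), where 2.82% of all genes were called in that fit. Without the first F5 mouse the adjusted p in F5 was 0.0616.

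Dntt was less affected. It stood at 1888, 1602 and 1544 CPM in sorted WT, 937 and 1328 in AND and 849 and 1319 in F5 mice. The 4 Rag1-deficient mice lay below the 3 sorted WT mice, within the range of OT-I, OT-II and unsorted WT mice. The log2 differences were -0.47 in AND (SE 0.28, adjusted p = 0.874) and -0.53 in F5 (SE 0.27, adjusted p = 0.409), and neither passed the test. With the number as a block Dntt was called in F5 (-0.58, adjusted p = 0.0414), where 11.6% of all genes were. Without the block, of the 3 genes, 1 fell in AND and 2 fell in F5, where 0.168% and 1.58% of all tested genes fell. In all, 0.372% and 2.85% were called in either direction.

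Rag1 also fell further than Rag2 in the deficient mice. In quiescent and signaled DP-like cells together the count of Rag1 UMIs per Rag2 UMI was 2.00 and 2.38 in AND and 1.75 and 4.10 in F5 mice. It was 5.65, 7.15 and 8.14 in sorted WT, 6.64 and 8.17 in MHCI-/- and 8.59 and 9.08 in MHCII-/- mice. The 4 values did not overlap the 7, and the mean log2 ratio differed by -1.65 (two-sided exact permutation test, n = 4 and 7, p = 0.006061, the smallest possible here). Against all 13 other mice the difference was -1.99 (two-sided exact permutation test, p = 0.0008403). In cluster 1 alone it was -1.49 with overlapping values (exact p = 0.01818), and in DN-like cells, with 3 mice against 4, -2.0 (exact p = 0.05714). The ratio compares mice and says nothing of which gene had more transcript, since capture differs between genes.

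**Figure D1:**
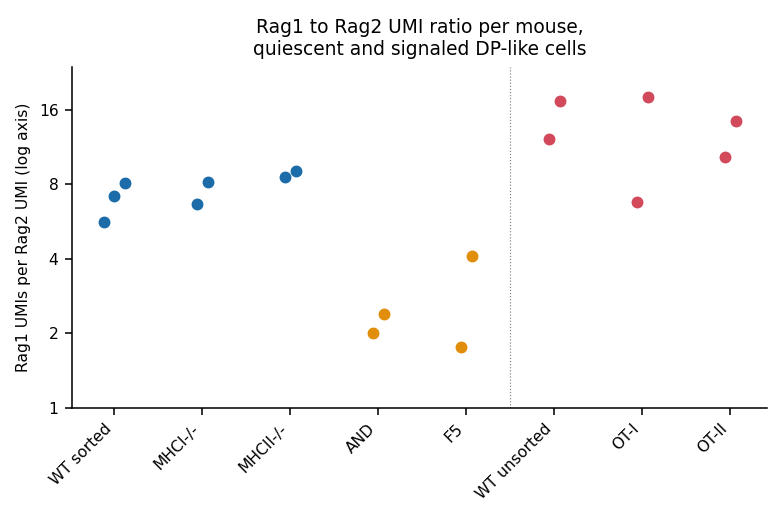
Rag1 UMIs per Rag2 UMI in quiescent and signaled DP-like cells (log axis), 1 point per mouse by genotype. Blue marks sorted mice of experiments 1 and 2, orange the Rag1-deficient AND and F5 mice and red experiment 3, right of the dotted line. The 4 orange points, 1.75 to 4.10, lie below every other mouse.

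Single cells gave the same order. With each cell thinned to 1500 UMIs, 74.5% of 1070 quiescent DP-like cells of sorted WT mice held a Rag1 UMI, 25.5% a Rag2 UMI and 86.4% a Dntt UMI. In 755 such cells of AND and F5 mice the shares were 21.3% (95% exact binomial interval 18.4 to 24.4, counting error only), 7.55% and 72.8%. Before thinning, a Rag1 UMI was found in 84.5% of the cells in sorted WT and 41.5% in AND and F5, whose cells held more UMIs (median 4232 against 2489). Thinning left out 28 shallower cells of sorted WT and 1 of AND and F5. In signaled DP-like cells of sorted WT mice 1.00% of 600 thinned cells held a Rag1 UMI, 0.333% a Rag2 UMI and 6.83% a Dntt UMI. Cells with Dntt and neither Rag gene made up 50.5% of the AND and F5 cells and 17% of those of sorted WT, while cells with Rag1 and Dntt made up 17.9% and 65.8%. Cells with all 3 genes made up 1.85% and 18.8%.

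Cells outside the T lineage served as a reference. Myeloid-like and erythrocyte-like cells, which should lack all 3 genes, held 11.2 to 21.3 CPM of Rag1 in AND and F5 mice, below every quiescent DP-like value there. Their Rag2 level was 5.33 to 24.8 CPM and their Dntt level 130 to 513, also below. In the other mice of experiments 1 and 2 the same cells held 4.97 to 817 CPM of Rag1 with a median of 148, and in experiment 3 they held 0 to 472 with a median of 107. The set is not pure, since its largest cluster also carried Igkc, an antibody light chain gene, and Cd74. SP-like, Treg-like and NKT-like cells of sorted WT mice held far less Rag1, 0 to 5.30 CPM. In WT r5 the SP-like classes held 290 to 351 CPM, against 472 in its non-T cells. The part of free RNA in these levels was not tested, and no thymocyte level is read as background from them.

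The make-up of the quiescent class differed between genotypes. Cluster 0 supplied 93.3% of it in sorted WT, 60.9% in AND and 7.4% in F5, and cluster 6 the rest. Among its 10 leading genes cluster 0 had 1 marker listed for the class and cluster 6 had 0. Within cluster 0 alone the Rag1 difference of F5 was -1.88 (adjusted p = 0.0568) and within cluster 6 alone -2.11 (adjusted p = 0.195). In AND it was -2.80 within cluster 6 (adjusted p = 0.10). These smaller fits kept the direction for Rag1 and lost those calls. The Rag2 difference of F5 was -0.50 within cluster 0 and -1.07 within cluster 6, neither called.

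**Figure D2:**
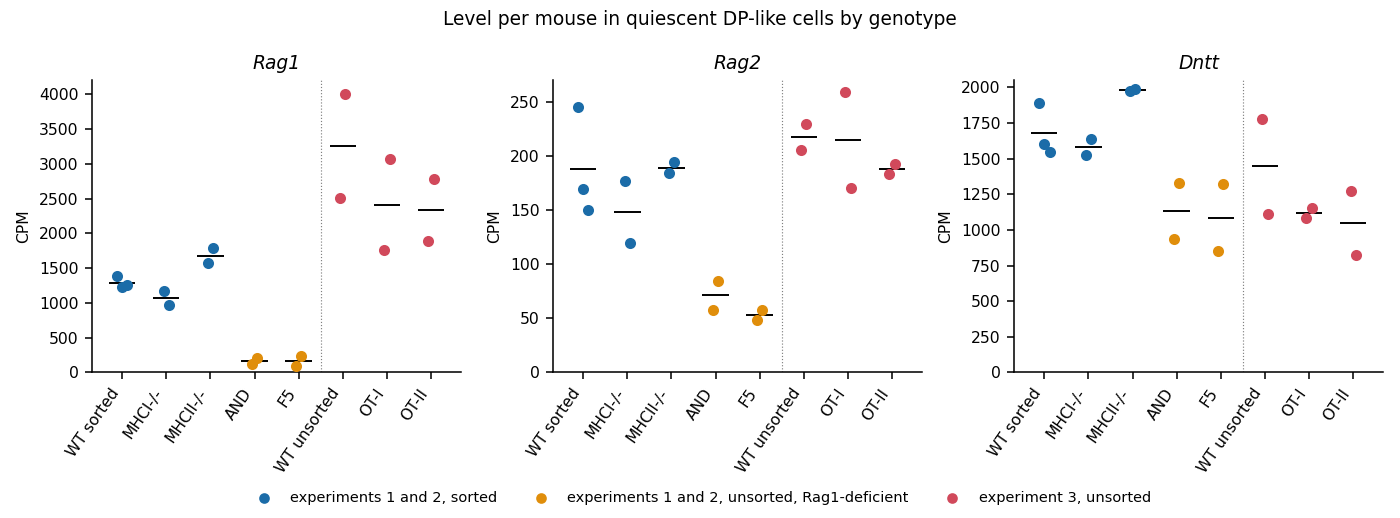
CPM of Rag1, Rag2 and Dntt in quiescent DP-like cells, 1 point per mouse, with the mean of each genotype as a line. Sorted mice of experiments 1 and 2 are blue, AND and F5 orange, and experiment 3 red, right of the dotted line. AND and F5 lie lowest for Rag1 and Rag2, and their Dntt values overlap those of experiment 3.

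The MHC-deficient and the Rag-sufficient transgenic mice showed no called difference. In quiescent DP-like cells Rag1 was at 1172 and 973 CPM in MHCI-/- and 1573 and 1786 in MHCII-/- mice, against 1222 to 1386 in sorted WT. It was at 1765 and 3063 in OT-I and 1892 and 2787 in OT-II, against 2504 and 4006 in unsorted WT. The MHCI-/- mice lay below the sorted WT mice and the MHCII-/- mice above them, while the OT and WT values overlapped. In clustering, experiment 3 entered as a batch with WT r4 and the first OT mice and another with WT r5 and the second. Within each batch both OT mice lay below WT (1765 and 1892 against 2504, 3063 and 2787 against 4006). No fit of OT against WT paired by these batches was run. Of the 12 tests of the 3 genes in these 4 genotypes, 0 reached an adjusted p of 0.05 by edgeR, 0 an unadjusted p of 0.05 and 0 were called by DESeq2. Of all genes, 0.036% were called in MHCI-/-, OT-I and OT-II each and 0.168% in MHCII-/-. The largest of these differences was that of Rag1 in OT-I, -0.58 on the log2 scale (SE 0.41, adjusted p = 0.955).

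Dntt was at 1975 and 1992 CPM in MHCII-/-, 1527 and 1636 in MHCI-/-, 1083 and 1157 in OT-I, 1272 and 824 in OT-II and 1780 and 1115 in unsorted WT. Rag2 was at 177 and 119 CPM in MHCI-/-, 184 and 195 in MHCII-/-, 260 and 170 in OT-I, 183 and 192 in OT-II and 206 and 230 in unsorted WT. The MHCII-/- mice had the highest Dntt values of all mice, and Rag2 stayed between 119 and 260 CPM in all mice other than AND and F5.

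Fitted with all mice, signaled DP-like cells and cluster 1 gave no called genotype difference for the 3 genes by edgeR without a block or by DESeq2. This holds for edgeR with its filter on low counts. With no such filter Rag1 and Rag2 of F5 were called in cluster 1. No share of all genes is given for that fit, so these calls are not read as particular to the genes. For the signaled cells of AND and F5 no test is given. In signaled cells AND had too few cells to be fitted, F5 was 1 mouse, and Rag1 and Rag2 were near the floor in most mice, so only Dntt is described. It differed by 1.42 in the F5 mouse, -1.04 in OT-I (SE 0.37, adjusted p = 0.975), -0.26 in MHCI-/-, 0.0090 in MHCII-/- and -0.09 in OT-II. An unadjusted p under 0.05 was reached by 2 of the 3 genes in OT-I, 1 in OT-II and 0 in the MHC-deficient mice. Of all genes, 0.0596% were called in OT-I and OT-II each, 0.0238% in MHCI-/- and 0.0477% in MHCII-/-. In cluster 1 Rag1 differed by -1.84 in F5 (SE 0.61, adjusted p = 0.220) and Rag2 by -1.46 (SE 0.66, adjusted p = 0.490), both at an unadjusted p under 0.05. With the replicate number as a block all 3 genes were called in F5 in that cluster, Rag1 at -1.87 (adjusted p = 4.97e-07), Rag2 at -1.67 (adjusted p = 0.0199) and Dntt at -0.46 (adjusted p = 0.0126), where 8.56% of all genes were called in that fit. In AND Rag1 and Rag2 differed, without the block, by -0.29 and 1.19, and both signs turned on 1 mouse: Rag1 was 0.27 and Rag2 1.69 without the first AND mouse, and -2.84 and -1.20 without the second. A finer clustering divided the cells of cluster 1 mainly in a pair of clusters, the first of which held 92.7% of those of F5 mice, 82.4% of OT-II, 13.6% of AND and 6.67% of sorted WT, so F5 and WT cells of this cluster were largely different cells. Of all genes tested there, 1.24% were called in F5, 0.104% in AND, 0.0347% in MHCI-/-, 0.0231% in MHCII-/-, 0.243% in OT-I and 0.451% in OT-II.

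Mice whose cells mostly become CD4 T cells (MHCI-/-, AND, OT-II) were also compared with those fated to CD8 (MHCII-/-, F5, OT-I). With family as a covariate and 6 mice a side, the log2 differences in quiescent DP-like cells were -0.17 for Rag1 (SE 0.24), -0.06 for Rag2 (SE 0.18) and -0.08 for Dntt (SE 0.17). None of the 3 was called, where 0.0578% of genes were (each adjusted p = 1.00 by edgeR). Both the count at an unadjusted p under 0.05 and the count called by DESeq2 were 0. Within the MHC family alone Rag1 was lower in MHCI-/- than in MHCII-/- mice by -0.63 (adjusted p = 2.93e-09) and Dntt by -0.30 (adjusted p = 0.0225). No share of all genes is given for that fit, so these calls are not read as particular to the genes. The other 2 families had the opposite sign for Rag1, 0.15 in AND against F5 and 0.056 in OT-II against OT-I. In signaled cells, with 4 mice against 5 (no AND mouse and 1 F5 mouse), the Dntt difference by fate was 0.074 (SE 0.29, adjusted p = 0.994), where 0.219% of genes were called. In the same 9 mice the log2 change from quiescent to signaled cells differed by fate by 0.39 for Rag1, -0.59 for Rag2 and 0.27 for Dntt (two-sided exact permutation tests, p = 0.762, 0.444 and 0.762, each 0.762 after adjustment over the 3).

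In sorted WT mice, where DN-like cells fell short of the cell minimum, all 3 genes were highest in quiescent DP-like cells. Rag1 averaged 1288 CPM there (SD 86.7, n = 3), 237 in cycling DP-like cells (SD 54.6) and 33.7 in cluster 1 (SD 2.41). It was 6.28 in signaled DP-like cells (SD 5.6) and 3.79, 3.14 and 2.70 in CD8 SP-like, mature SP-like and CD4 SP-like cells. The ranges of the 4 last classes overlapped. The quiescent, cycling (177 to 283 CPM) and cluster 1 (31.6 to 36.4 CPM) ranges did not.

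Rag2 followed the same order, with 188.5 CPM in quiescent (SD 50.3), 77.0 in cycling (SD 7.88), 10.8 in cluster 1 (SD 5.06) and 3.47 in signaled cells (SD 4.41). Dntt went from 1678 in quiescent (SD 184) to 1119 in cycling (SD 111), 319 in cluster 1 (SD 34.6), 44.2 in signaled (SD 7.08) and 21.6 CPM in mature SP-like cells (SD 1.52). For Rag2 and Dntt too the quiescent, cycling and cluster 1 ranges did not overlap. DN-like cells passed the cell minimum in unsorted WT mice, where they held 599 and 1168 CPM of Rag1, 79.5 and 106 of Rag2 and 1453 and 1153 of Dntt. Quiescent cells of these mice held 1780 and 1115 CPM of Dntt, so in WT r5 Dntt was not highest in quiescent cells.

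**Figure D3:**
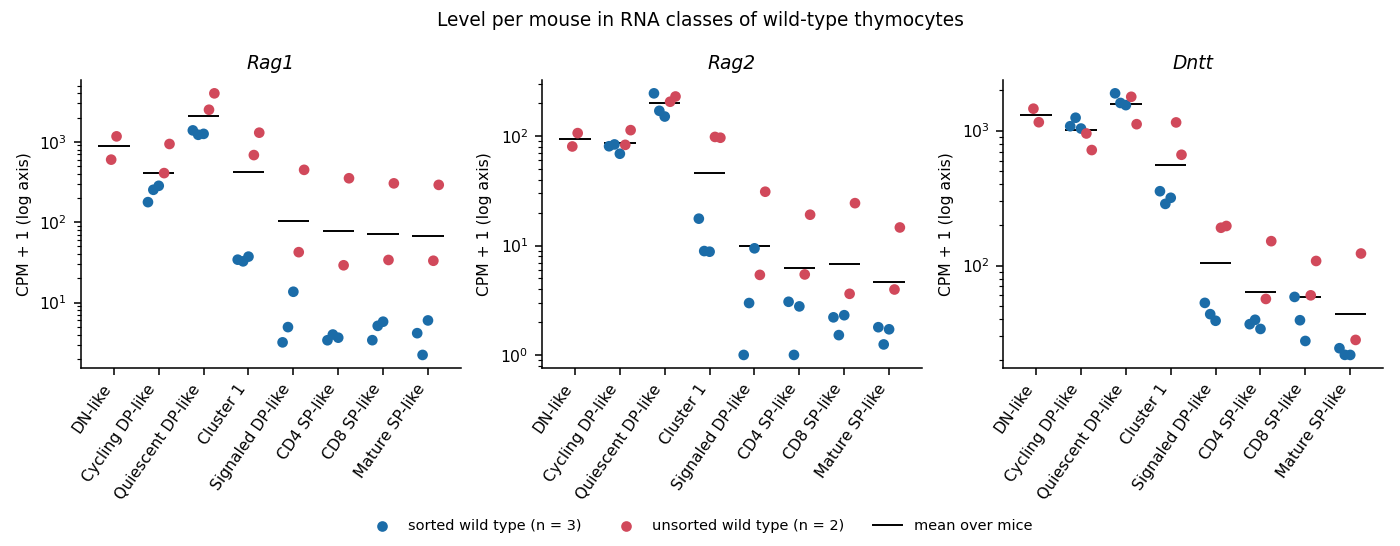
CPM + 1 (log axis) of Rag1, Rag2 and Dntt in RNA classes of WT thymocytes, 1 point per mouse, sorted blue (n = 3) and unsorted red (n = 2), with the mean over mice as a line. Quiescent DP-like cells are highest for each gene in sorted mice, and unsorted mice lie above sorted ones in cluster 1.

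From cycling to quiescent DP-like cells the recombinase genes rose as a share of RNA and Dntt did not pass the test. The median UMIs per cell, relative to the lane median, were 0.787 and 0.995 in quiescent clusters 0 and 6. In the cycling clusters they were 4.24, 2.98, 1.43 and 0.804. Counts per cell were not compared between these classes, so no rise per cell is read. Rag1 was at 177, 252, 283, 407 and 939 CPM in cycling cells and at 1386, 1222, 1255, 2504 and 4006 in quiescent cells of WT r1 to r5. It rose in 5 of 5 mice, by 2.20 on the log2 scale (SE 0.40, adjusted p = 8.07e-06). Rag2 went from 79.9, 83.1, 68.1, 82.4 and 113 CPM to 245.5, 170, 150, 206 and 230 (log2 0.96, SE 0.18, adjusted p = 2.05e-05). Rag2 was called by edgeR and not by DESeq2 (0.89, adjusted p = 0.227). Dntt was higher in quiescent cells in 5 of 5 mice, by 0.36 to 0.90 on the log2 CPM scale, and its fitted difference was 0.32 (SE 0.26, adjusted p = 0.265). It was called without WT r5 (adjusted p = 0.0443) and in the fit with no filter on low counts, fits for which no share of all genes is given. The step was broad: 38.7% of 10934 genes rose, so the rise of 2 of the 3 is read against that share. Between DN-like and cycling DP-like cells none of the 3 was called by edgeR, with 40.7% of genes called in either direction. All 3 were called with no filter on low counts, a fit for which no share of all genes is given. Only WT r4 and r5 had enough DN-like cells, and in both Rag1 and Dntt were lower in cycling cells, at 407 and 939 CPM of Rag1 and 951 and 717 of Dntt. Fitted within these 2 mice the log2 differences were -0.25 and -0.48, whereas the fit with all 5 mice gave 0.56 and 0.22, so no direction is read.

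From quiescent to signaled DP-like cells, the class that expresses Egr1, Egr2, Cd69 and Nr4a1, all 3 genes fell, as did 21.4% of genes. Rag1 was at 2.21, 3.96, 12.7, 41.4 and 447 CPM in signaled cells of WT r1 to r5. Rag2 was at 0, 1.98, 8.44, 4.39 and 30.1 CPM. Dntt was at 51.9, 42.6, 38.0, 190 and 195 CPM. The unsorted mice r4 and r5 stayed higher for Rag1 and Dntt, but each mouse was far below its own quiescent level. The log2 changes were -5.62 for Rag1 (SE 0.55, adjusted p = 1.11e-10), -4.94 for Rag2 (SE 0.39, adjusted p = 4.99e-13) and -3.91 for Dntt (SE 0.33, adjusted p = 3.07e-12). In sorted mice alone they were -8.08, -6.54 and -5.10, and in unsorted mice alone -4.47, -4.16 and -2.90. The SP-like classes of r4 and r5 held 28.2 to 32.9 and 290 to 351 CPM of Rag1, so r5 was high in these classes as well.

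Cluster 1 lay between quiescent and signaled cells in 5 of 5 WT mice for Rag1 and Dntt and in 4 of 5 for Rag2. In WT r3 its Rag2 level was 7.79 CPM, against 8.44 in signaled cells. Rag1 was at 33.2, 31.6, 36.4, 683 and 1298 CPM there, Rag2 at 16.6, 7.91, 7.79, 97.5 and 95.8, and Dntt at 355, 285, 317, 1149 and 661. Unsorted mice were higher than sorted ones for each gene, with no overlap. From quiescent cells the log2 changes were -3.28 for Rag1 (adjusted p = 2.27e-06), -1.86 for Rag2 (adjusted p = 4.41e-06) and -1.60 for Dntt (adjusted p = 9.59e-05). Within sorted mice they were -5.21, -4.10 and -2.35. Within unsorted mice they were -1.79, -1.11 and -0.66, none called. All 3 genes fell again from cluster 1 to signaled cells, by 2.42, 3.04 and 2.33 on the log2 scale. Of all genes, 8.4% fell in the first of these steps and 7.88% in the second. Without WT r4 the second step of Rag1 had an adjusted p of 0.187 and that of Rag2 0.126.

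Past the signaled class the differences were smaller. Of the 9 tests from signaled DP-like to CD4 SP-like, CD8 SP-like and mature SP-like cells, 1 was called by edgeR: Dntt fell by 1.24 in mature SP-like cells (SE 0.40, adjusted p = 0.0114), where 21.7% of genes fell. DESeq2 did not call it (-0.98, adjusted p = 0.0584). With no filter on low counts, edgeR also called Rag1 and Dntt in CD4 SP-like and CD8 SP-like cells and Rag1 and Rag2 in mature SP-like cells. No share of all genes is given for that fit. Dntt was at 20.8 to 27.1 CPM in mature SP-like cells of WT r1 to r4 and at 122 in r5, and each mouse was lower than in its signaled cells. Myeloid-like and erythrocyte-like cells of WT r1 to r5 held 348, 163, 133, 119 and 190 CPM of Dntt, above the mature SP-like level of each. In the steps to CD4 SP-like and CD8 SP-like cells 25.3% and 41.6% of genes were called. Without WT r4 the adjusted p of Dntt in mature SP-like cells was 0.321. Without WT r5 the Dntt differences in CD4 SP-like cells (-1.04, adjusted p = 0.00116) and in CD8 SP-like cells (-0.74, adjusted p = 0.0116) were called.

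Between these RNA classes Dntt fell less steeply than the Rag genes in the same mice. The surface gates described below did not all show this. From quiescent cells to cluster 1 the log2 fall of Dntt was smaller than that of Rag1 in 17 of 17 mice, by 2.01 on average (SD 0.81). It was smaller than that of Rag2 by 1.32 (SD 0.88), also in 17 of 17 mice. For both, the two-sided exact sign-flip permutation test gave p = 1.53e-05, the smallest possible with 17 mice, and 3.05e-05 after Benjamini-Hochberg adjustment over the 4 such tests. Within the 11 mice of experiments 1 and 2 the gaps were 2.48 and 1.75, and within the 6 of experiment 3 they were 1.14 and 0.53. From quiescent to signaled cells the gap was 3.1 against Rag1 (14 of 14 mice, exact permutation p = 0.0001221, adjusted 0.0001628) and 2.27 against Rag2 (12 of 14 mice, exact permutation p = 0.001343, also after adjustment). The comparison with Rag2 to signaled cells depends on the pseudocount of 1 CPM: with 5 CPM the gap was 0.64 (exact permutation p = 0.118). Myeloid-like and erythrocyte-like cells of experiments 1 and 2 outside AND and F5 held 69.6 to 1001 CPM of Dntt, and the part of RNA from other cells in these gaps was not tested.

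Surface protein gates gave each cell its stage from antibody counts. Clustering entered only in leaving out myeloid-like and erythrocyte-like cells, and also gamma-delta T-like and NKT-like cells when thresholds were set. CD4+CD8+ cells were divided into CD69- cells (DP1), CD69+ cells (DP2) and cells positive for TCRb, CD69 and CD127 (DP3). CD69 is an early sign of TCR signaling and CD127 the IL-7 receptor alpha chain. Rag1 was at 546, 458, 410, 1357 and 2312 CPM in DP1 of WT r1 to r5, at 27.2, 47.7, 64.5, 1545 and 2297 in DP2 and at 3.20, 10.6, 6.30, 539 and 1160 in DP3. The 3 sorted mice fell steeply at the first step, and the 2 unsorted mice did not fall until the second.

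Rag2 and Dntt split the mice in the same way. Rag2 was at 129, 85.3, 84.3, 142 and 169 CPM in DP1 and at 7.42, 10.1, 13.2, 146 and 162 in DP2. Dntt was at 1235, 1076, 1131, 1379 and 917 CPM in DP1 and at 115, 149, 155, 1315 and 827 in DP2. In DP3 Rag2 was at 1.60, 1.63, 4.20, 52.6 and 65.7 CPM and Dntt at 71.9, 91.4, 60.9, 520 and 447. Sorted and unsorted mice did not overlap in DP2 or DP3 for any of the 3 genes.

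Over the 5 mice the DP2 minus DP1 log2 difference was -2.04 for Rag1 (SE 0.51, adjusted p = 0.00261), -1.60 for Rag2 (SE 0.37, adjusted p = 0.00119) and -1.98 for Dntt (SE 0.38, adjusted p = 0.000154), a step at which 12.7% of 10038 genes fell. Within sorted mice it was -3.40, -3.31 and -3.04, each called, in a fit for which no share of all genes is given. Within unsorted mice it was 0.070, -0.053 and -0.15, none called. The pooled Rag1 call was lost without WT r1 (adjusted p = 0.0516) or WT r2 (adjusted p = 0.0832). The step itself differed between unsorted and sorted mice by 3.51 for Rag1 (SE 0.20, adjusted p = 1.49e-09), 3.32 for Rag2 (SE 0.20, adjusted p = 2.50e-09) and 2.94 for Dntt (SE 0.13, adjusted p = 1.63e-10). A higher step in unsorted mice was called for 9.64% of genes. This test was added after the levels had been seen, and sort and experiment cannot be told apart in it. The CD69 threshold, set per experiment, was 24.8 and 23.6 antibody UMIs per 10000 in experiments 1 and 2 and 10.9 in experiment 3. With all gate thresholds moved up or down by 0.5 on the log2 scale the Rag1 difference was 3.96 and 2.66, and each of the 3 genes stayed called. Thresholds of all experiments moved together, so the gap between them remained and these fits cannot show its part in the difference.

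Further gates were lower still. From DP2 to DP3 none of the 3 genes was called over the 5 mice by edgeR, where 4.89% of genes were. Within unsorted mice each was (Rag1 -1.35, adjusted p = 0.0499, Rag2 -1.41, adjusted p = 0.00107, and Dntt -1.17, adjusted p = 0.0335). Within sorted mice Rag1 (-2.40, adjusted p = 0.00104) and Dntt (-0.71, adjusted p = 0.0365) were. From DP1 to DP3 Rag1 fell by 3.32, Rag2 by 2.81 and Dntt by 2.93, with 19.5% of genes falling. Within sorted mice these falls were 5.80, 5.33 and 3.75, and within unsorted mice 1.28, 1.46 and 1.32, each called. Over the 5 mice Dntt did not fall less than Rag2 from DP1 to DP2 or to DP3, unlike between the RNA classes. Within unsorted mice it did not fall less than Rag1 from DP1 to DP3. Within sorted mice it fell less than both Rag genes at these steps. For fits within sorted or unsorted mice alone no share of all genes is given, so calls there are not read as particular to the genes. From DP2 to CD4 SP CD69+ cells Rag1 fell by 4.07, Rag2 by 4.15 and Dntt by 2.94 (18.7% of genes fell). From DP2 to CD8 SP CD69+ cells they fell by 3.76, 3.89 and 2.86 (19.4% of genes fell). Rag1 was at 3.80, 2.03, 2.95, 18 and 265 CPM in CD4 SP CD69+ cells. The last value was again WT r5.

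**Figure D4:**
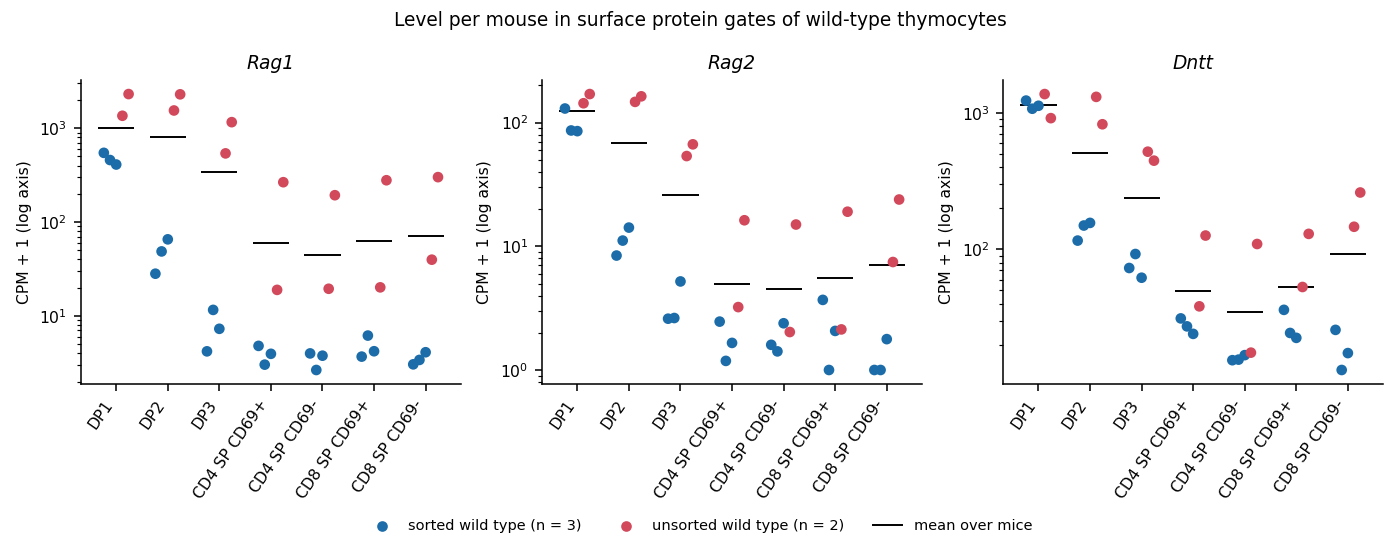
CPM + 1 (log axis) of Rag1, Rag2 and Dntt in surface protein gates of WT thymocytes, 1 point per mouse, sorted blue (n = 3) and unsorted red (n = 2), with the mean over mice as a line. In DP2 the 2 unsorted mice remain near their DP1 level while the 3 sorted mice lie far below theirs.

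Levels also fell with TCRb protein. DP-gated cells of each of the 17 mice were divided into TCRb quintiles by antibody count, a sign of receptor expressed at the surface. In AND and F5 mice that receptor is the transgene, so there it is no sign of rearrangement. Nearly all thymocytes of OT-I and OT-II mice bear a transgenic receptor too, so it is not read as such a sign in them either. Rag1 ranged over 37.4 to 2237 CPM in the lowest quintile (median 386) and 0.609 to 1596 in the highest (median 19.3). Rag2 ranged over 46.7 to 167 CPM (median 81.0) and 0 to 110 (median 5.70), and Dntt over 409 to 1425 (median 916) and 18.7 to 892 (median 177). Every mouse was lower in the highest quintile for each gene. The log2 differences were -2.78 for Rag1 (SE 0.41, adjusted p = 4.57e-06), -2.44 for Rag2 (SE 0.32, adjusted p = 1.08e-06) and -2.35 for Dntt (SE 0.27, adjusted p = 1.43e-07). All 3 genes fell, as did 28.1% of 10020 genes. Rag1 differed by -5.02 within experiment 1, -3.12 within experiment 2 and -1.86 within experiment 3, each called, as were Rag2 (-5.66, -3.24 and -1.35) and Dntt (-3.48, -2.48 and -1.59). Shares of all genes are not given for these fits, so the calls are not read as particular to the genes.

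The spread among mice in the highest quintile was wide. Unsorted WT mice kept 986 and 1596 CPM of Rag1 there, OT-II mice 297 and 618, and OT-I mice 0.625 and 13.1. Sorted WT mice had 7.76, 18.8 and 18.5 CPM, MHCI-/- mice 51.9 and 19.3, MHCII-/- mice 123 and 100.4, and AND and F5 mice had 20.6, 13.5, 0.609 and 6.09. OT-I and OT-II mice, both from experiment 3, did not overlap.

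**Figure D5:**
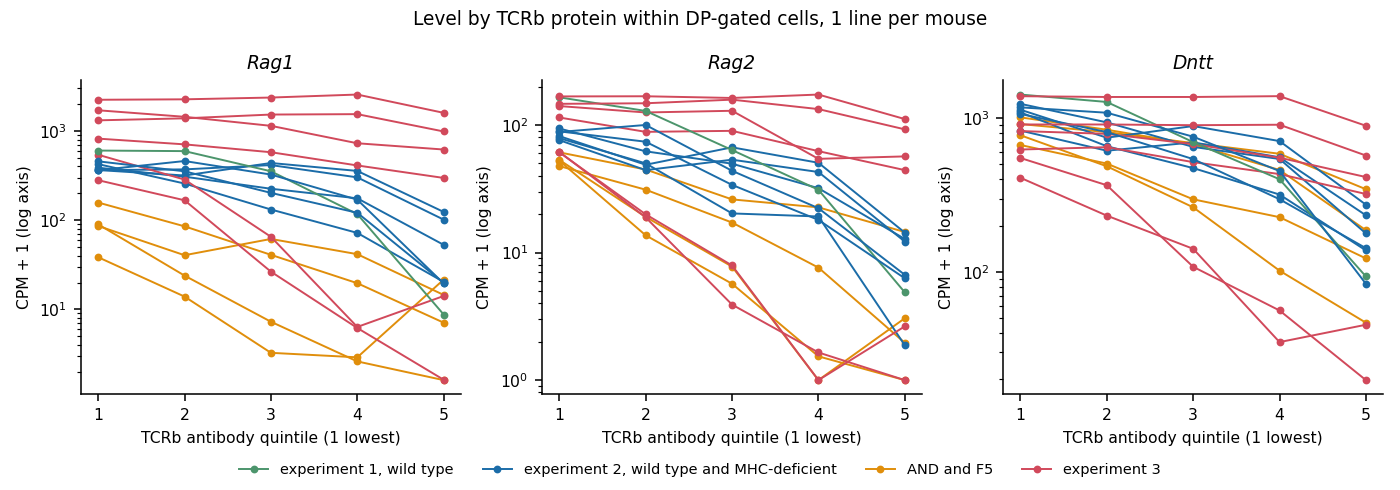
CPM + 1 (log axis) of Rag1, Rag2 and Dntt against quintiles of TCRb antibody count in DP-gated cells, 1 line per mouse: experiment 1 WT green, experiment 2 WT and MHC-deficient blue, AND and F5 orange, experiment 3 red. Each line ends lower than it begins, and the 2 upper red lines of unsorted WT fall least for Rag1.

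Genes of DNA end joining and of the break response, 20 in all and each tested, held members that rose and members that fell at each of the 3 steps described here. From DP1 to DP2, 2 of the 20 rose and 6 fell, with a median log2 difference of -0.16, where 9.55% of all genes rose and 12.7% fell. Hmgb2, a DNA-bending cofactor of the recombinase that is also high in dividing cells, fell by 2.65, H2afx, the histone variant marked at breaks, by 2.30, and Xrcc6, the Ku70 end-binding subunit, by 1.45. Poll, a polymerase that fills ends during joining, rose by 1.46 (adjusted p = 0.0105). The step differed between unsorted and sorted mice for 8 of the 20, with Hmgb2 higher in unsorted mice by 2.69, Xrcc6 by 2.31 and H2afx by 1.79, each called. In that test 14.2% of all genes were called, 9.64% higher and 4.61% lower in unsorted mice, and of the 20 genes 7 were higher and 1 was lower. From DP2 to CD4 SP CD69+ cells 5 rose and 5 fell, where 16.6% of genes rose and 18.7% fell. Lig4, the ligase of end joining, fell by 2.27, Xrcc6 by 1.81 and Dclre1c (Artemis, which opens hairpin ends) by 1.09, while Poll rose by 2.07. From the lowest to the highest TCRb quintile 3 rose and 11 fell, where 29.2% of genes rose and 28.1% fell. In quiescent cells 0 of 18 tested were called by edgeR in AND (2 at an unadjusted p under 0.05) and 0 of 18 in F5 (3 at an unadjusted p under 0.05), where 0.372% and 2.85% of all genes were.

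Among 20 transcription factors and regulators known to act on the Rag or Dntt loci, 19 were tested in the gates. From DP1 to DP2, 7 rose and 3 fell (median 0.09), where 9.55% of genes rose and 12.7% fell. Id2 rose by 2.54, Lef1 by 1.42 and Id3 by 1.06, whereas Ccnd3, a cyclin of dividing precursors, fell by 1.01. Id2 and Id3 are inhibitors of the E proteins, which bind E boxes. This step too differed between unsorted and sorted mice for 8 of the 19, by -1.66 for Id2, -1.03 for Lef1, -0.72 for Id3 and 1.57 for Ccnd3, each called. Of the 8, 3 were higher and 5 lower in unsorted mice, against the same 9.64% and 4.61% of all genes. From DP2 to CD4 SP CD69+ cells 3 rose and 11 fell (median -0.42), where 16.6% of genes rose and 18.7% fell: Myb fell by 3.28 and Gfi1, a repressor, by 2.13, and Id2 rose by 1.75. From DP2 to CD8 SP CD69+ cells 1 rose and 13 fell (17.4% of genes rose and 19.4% fell). In quiescent cells 0 of 18 were called by edgeR in AND (2 at an unadjusted p under 0.05), and in F5 1 of 18 was: Id3 rose by 1.64 (adjusted p = 0.00144). The shares of all genes called were 0.372% and 2.85%.

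Of 8 genomic neighbors 4 were tested. B230118H07Rik, which spans the Rag genes, fell with them: by 1.22 from DP1 to DP2 (adjusted p = 0.00529), by 3.27 from DP2 to CD4 SP CD69+ and by 1.89 with TCRb. Its step from DP1 to DP2 was higher in unsorted than in sorted mice by 3.16 (adjusted p = 1.75e-09). In quiescent cells it was lower by -2.54 in AND (adjusted p = 0.0223) and -2.40 in F5 (adjusted p = 0.00121). Traf6 and Commd9, further along chromosome 2, were not called from DP1 to DP2 (-0.08 and -0.25). Tm9sf3, near Dntt, rose by 0.31 at that step. Reads in the 80 bases that B230118H07Rik shares with Rag1 could be split between them, and how many there were was not measured.

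Over the class means of WT mice, 14 classes and 8588 genes that reach 20 CPM in a class, the genes most like Rag1 by Pearson r of log2(CPM + 1) were P2rx1 (0.977), Aff1 (0.973), B230118H07Rik (0.973), Arpp21 (0.969) and Dgkeos (0.963). Rag2 came sixth, at 0.956, and Dntt twenty-second, at 0.926. Those nearest Rag2 were Gm525 (0.981), P2rx1, B230118H07Rik, Dgkeos and Arpp21. Those nearest Dntt were Dgkeos (0.981), Arpp21, Gm525, Gm37065 and Myzap. The classes share libraries and depth and were formed from RNA that includes some of these genes, Arpp21 being a class marker, so the values are a description.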

How the data were processed

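Thymocytes of 17 mice were profiled on 19 lanes of droplet CITE-seq. The authors deposited UMI counts of RNA and of antibody tags per cell barcode, made with Cell Ranger (3.1.0 in the submitters' processing notes, 3.0.2 in some matrix headers) on mm10 (GRCm38). No column belonged to another series (0). Samples were grouped by the submitters' labels. The genes and gene lists were chosen with earlier results of these data known.

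Cells with at most 15% mitochondrial UMIs, at least 200 genes, 1000 to 10000 antibody UMIs and at least 70 of 111 antibodies were kept, which left 72054. Simulated doublets were compared with the cells of each lane, and 2811 called doublets were left out. Lanes held 9893333 to 43303999 RNA UMIs and a median of 1493 to 7175 UMIs per kept cell. Cells were clustered on 2000 variable genes without Rag1, Rag2 and Dntt (30 components, 20 neighbors, Leiden resolution 1) and named from marker genes. A Harmony batch correction with 4 batches and 100 clusters was part of this clustering, so the RNA classes come from batch-corrected data. Sorted and unsorted WT mice were in different batches, so batch and sorting cannot be told apart in these classes. The class markers and many genes of the lists entered the clustering, so differences between classes are on cells separated by correlated genes. Surface gates were set on antibody counts, with thresholds set in each experiment. Myeloid-like and erythrocyte-like cells were left out of the gates, and gamma-delta T-like and NKT-like cells also when thresholds were set.

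Deposited counts were summed per mouse and cell group of at least 10 cells and tested with edgeR 4.0.16 (quasi-likelihood, TMM, filterByExpr, the mouse as a block where a mouse gave several sums, and adjusted p by Benjamini-Hochberg over all genes, threshold 0.05). DESeq2 1.42.0 was an alternative. Single values were tested by exact permutation over mice. The p-values measure the spread between these mice. By the labels, replicate numbers 1 and 2 fall in experiments 1 and 2 for WT, AND and F5 mice, and the fit with the number as a block is given where it changed a call. For the falls within a mouse 1 CPM was added before the log2, and 0.5 UMI to each count of the ratio. From each list at most 4 genes per comparison were named, by the largest log2 change among those called. The edgeR step was tested on simulated data. With 200 genes changed, it recovered 85.1% of 2-fold changes from quiescent to signaled cells and 0% of 1.5-fold, 2.99% of 2-fold and 77.3% of 4-fold changes between AND and WT, so 2-fold differences between those groups were mostly not detectable. Between the mice grouped by fate it recovered 86.6% of 2-fold changes. The comparisons of cluster 1, the test of sorted against unsorted steps, the falls of Dntt against the Rag genes and the fits within sorts, experiments, families and single clusters were added after the data were seen. Cells sharing a barcode between lanes were kept.

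The alternatives were DESeq2, no filter on low counts, no antibody filters, doublets kept, Leiden resolution 2, at least 30 cells, moved gates, thinning to 1000 UMIs, other blocks and leaving out each mouse. Antibody tags were used for gates and filters only.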

Additional observations from a re-analysis of the deposited data

Results flagged for a closer look

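The DP2 minus DP1 step of wild-type mice differed between unsorted and sorted mice for each gene. The difference was 3.51 for Rag1 (adjusted p = 1.49e-09), 3.32 for Rag2 (adjusted p = 2.50e-09) and 2.94 for Dntt (adjusted p = 1.63e-10), by an interaction term in edgeR. Unsorted mice were all in experiment 3, so sorting, experiment and the CD69 threshold of that experiment cannot be told apart.

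WT r5 stood apart from the other 4 wild-type mice for Dntt in 2 of 44 groups tested for such a sample. In mature SP-like cells it held 122 CPM against 20.8 to 27.1, a gap of 0.852 of the range of the group on the log2(CPM + 1) scale. In CD4 SP CD69+ cells it held 125 CPM against 22.9 to 37.1, a gap of 0.720 of the range on the same log2 scale. Myeloid-like and erythrocyte-like cells of the same mouse held 190 CPM of Dntt. Chance alone sets about 1 sample in 20 groups apart in this way.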

How the results depend on the processing

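All values are log2 differences unless a share is named, with adjusted p or exact permutation p in parentheses. Of 107 results under 1906 alternatives, 1758 values kept direction and side of the threshold, 42 lost it, 32 gained it, 68 turned direction and 6 moved. Of 639 alternatives of the 38 called results, 596 were unchanged in this sense. The causes of these changes were not tested.

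Replicate numbers 1 and 2 coincide with experiments 1 and 2 for WT, AND and F5 mice, where same-numbered deviations correlated at 0.108 and 0.0507 (WT and AND), 0.27 and 0.141 (WT and F5) and 0.252 (AND and F5), over 3335 genes. In the other genotypes the labels give the number no meaning. Within an experiment the correlation was 0.0372 between MHCI-/- and MHCII-/- and 0.544 between OT-I and OT-II, whose pairing enters the comparison by fate and changed no call there. With the number as a replicate block, quiescent cells gave Rag2 -1.16 in AND (0.00137), Dntt -0.58 in F5 (0.0414) and Rag1 0.40 (0.0299) and Rag2 -0.075 in MHCII-/-. Signaled cells gave Dntt -0.026 in MHCII-/-. Cluster 1 of F5 gave Rag1 -1.87 (4.97e-07), Rag2 -1.67 (0.0199) and Dntt -0.46 (0.0126). With no replicate block for the mouse, the stage steps gave: for DP2 minus DP1 Rag1 -0.39, Rag2 -0.83 and Dntt -1.20, for DP3 minus DP1 Rag1 -1.55 and Rag2 -2.11, for CD4 SP CD69+ Rag1 -3.58 and CD8 SP CD69+ Rag1 -3.48, for TCRb quintiles Rag1 -1.44, for quiescent minus cycling Rag1 2.05 and Rag2 0.94, for cycling minus DN-like Rag1 -0.86 and Dntt -0.12, for mature SP-like Dntt -1.01, for cluster 1 minus quiescent Rag1 -2.27, Rag2 -2.02 and Dntt -1.47, and for signaled minus cluster 1 Rag1 -2.01 and Rag2 -2.73.

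Within sorted WT mice, CD8 SP-like minus signaled was 0.17 for Rag1 and 0.20 for Dntt, and DP3 minus DP2 was -2.40 for Rag1 and -0.71 for Dntt. Within unsorted WT mice, DP2 minus DP1 was 0.070 for Rag1, -0.053 for Rag2 and -0.15 for Dntt, DP3 minus DP2 was -1.35, -1.41 and -1.17, cluster 1 minus quiescent was -1.79, -1.11 and -0.66, cycling minus DN-like was -0.25 for Rag1 and -0.48 for Dntt, and mature SP-like Dntt was -1.27. Within cluster 0 F5 gave Rag1 -1.88 (0.0568) and Rag2 -0.50 (0.949), MHCII-/- Rag2 -0.032 and OT-I Rag2 0.17. Within cluster 6 AND gave Rag1 -2.80 (0.10), F5 Rag1 -2.11 (0.195) and Rag2 -1.07 (1.00), and MHCI-/- Rag2 0.18.

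DESeq2 gave quiescent minus cycling Rag2 0.89 (0.227), mature SP-like Dntt -0.98 (0.0584), quiescent Rag2 -0.0014 in MHCII-/- and 0.057 in OT-I, and signaled Dntt -0.015 in MHCII-/- and 0.21 in OT-II. With no filter on low counts, cluster 1 F5 gave Rag1 -1.84 and Rag2 -1.45, CD4 SP-like Rag1 -0.47 and Dntt -0.77, CD8 SP-like Rag1 -0.41 and Dntt -0.64, mature SP-like Rag1 -0.43 and Rag2 -1.06, cycling minus DN-like Rag1 0.68, Rag2 0.48 and Dntt 0.32, and quiescent minus cycling Dntt 0.26. Each of these passed the threshold in that fit, for which no share of all genes is given, and not in the reported one. With doublets kept, mature SP-like Dntt was -0.88 (0.0643), MHCII-/- quiescent Rag2 -0.0051 and MHCI-/- cluster 1 Rag1 0.070. At Leiden resolution 2, mature SP-like Dntt was -0.81 (0.138), cycling minus DN-like Rag2 0.98 (0.0114), the fate difference in signaled Dntt -0.26 and in the fall of Rag2 0.47 (against -0.59 as reported). With RNA filters only, the fate difference in quiescent Rag2 was 0.036, MHCII-/- quiescent Rag2 -0.0080 and signaled Dntt -0.026. With at least 30 cells, the fate difference was -0.26 in signaled Dntt, -0.37 in the fall of Rag1 and -0.85 in that of Dntt. With no family covariate it was 0.033 for quiescent Rag2 and -0.13 for signaled Dntt. The MHC family alone gave quiescent Rag1 -0.63 and Dntt -0.30 and signaled Dntt -0.27, the OT family quiescent Rag1 0.056, and AND against F5 quiescent Rag1 0.15, Rag2 0.59 and Dntt 0.11. With a pseudocount of 5 CPM the fate difference in the fall of Rag1 was -0.035, and Dntt fell less than Rag2 to signaled cells by 0.64. In experiments 1 and 2 the latter was 1.35. The Rag1 to Rag2 ratio in DN-like cells alone differed by -2.0 (exact p = 0.0571). Thinned to 1000 UMIs, Rag1, Rag2 and Dntt were in 62.5%, 15.9% and 76.5% of quiescent cells of sorted WT and 66.7%, 16.2% and 78.8% of those of all mice of experiments 1 and 2 outside AND and F5.

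Leaving out 1 mouse at a time gave these ranges. In stage steps, quiescent minus cycling Dntt ran from 0.20 to 0.42, CD4 SP-like Dntt from -1.04 to -0.30, CD8 SP-like Dntt from -0.91 to -0.19, mature SP-like Dntt from -1.61 to -0.65, DP2 minus DP1 Rag1 from -2.79 to -1.51, and signaled minus cluster 1 Rag1 from -3.53 to -1.57 and Rag2 from -3.99 to -2.02. In quiescent cells, AND Rag1 ran from -3.48 to -2.56 and Rag2 from -1.72 to -0.95, F5 Rag2 from -1.88 to -1.48, MHCI-/- Dntt from -0.10 to 0.033, MHCII-/- Rag2 from -0.10 to 0.25, OT-I Rag2 from -0.58 to 0.19, OT-II Rag1 from -0.84 to 0.0032 and the fate difference in Rag2 from -0.26 to 0.11. In signaled cells, Dntt ran from -0.13 to 0.17 in MHCII-/-, from -0.92 to 0.35 in OT-II and from -0.21 to 0.40 in the fate difference. In cluster 1, AND Rag1 ran from -2.84 to 0.27, Rag2 from -1.20 to 1.69 and Dntt from -0.060 to 1.08, F5 Rag1 from -3.47 to -1.13, OT-I Dntt from -0.73 to 0.13, and OT-II Rag1 from -1.07 to 6.6e-06 and Rag2 from -0.42 to 0.010. The fate difference in the fall ran from -0.36 to 0.83 for Rag1 and from -0.29 to 0.83 for Dntt. Rag2 in AND was called without WT r4 (-1.18, 0.0346) or WT r5 (-1.20, 0.0312). For shares of cells with a UMI only the depth was varied. Resolution 2 was not run for cluster 1, and AND and the second F5 mouse had too few signaled cells to be fitted.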

Other observations

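Gamma-delta T-like cells carried Dntt transcripts in AND, OT-I and OT-II mice, and F5 mice had too few such cells. The class was named from RNA markers, and 0.87% of the cells of its main cluster came from WT mice. AND mice are Rag1-deficient, so the name is not evidence of rearranged gamma and delta genes. Their Dntt level was 290 and 386 CPM in AND, 237 and 218 in OT-I and 171 and 152 in OT-II mice. Rag1 was at 0 in both AND mice, which allows up to 0.986 CPM in the first (3 of 3042508 UMIs) and 5.88 in the second. It was at 0.961 and 6.39 CPM in OT-I and 22.2 and 51.5 in OT-II mice. Rag2 was at 0.329 and 0 CPM in AND, 0.240 and 1.47 in OT-I and 4.57 and 7.72 in OT-II mice. In the first AND mouse this class held 882 Dntt UMIs. Myeloid-like and erythrocyte-like cells of the same mice held 130 and 249 CPM of Dntt in AND, 24.3 and 0 in OT-I and 50.5 and 140 in OT-II, below the gamma-delta T-like level of each mouse. For the second OT-II mouse the 95% interval of that 140, counting error only, was 90.5 to 206, which includes the 152. Mature SP-like cells held 6.86 and 16.6 CPM in AND, 45.7 and 31.4 in OT-I and 31.9 and 44.6 in OT-II mice.

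Cycling DP-like cells of OT-I mice held less of each gene than those of WT mice of the same experiment. Rag1 was at 36.0 and 81.9 CPM against 407 and 939, Rag2 at 7.97 and 9.81 against 82.4 and 113, and Dntt at 263 and 203 against 951 and 717. The groups did not overlap, and this difference was not tested. No share of all genes without overlap is given, so it is not read as particular to these genes.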
